A study of Mus musculus with 36 samples.

Results

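Respiratory complex I (NADH:ubiquinone oxidoreductase) is the entry point of the mitochondrial respiratory chain, and its nuclear genes are described here by where HA-tagged histone H4 was found in mouse embryonic stem cells (mESCs). Members were the protein-coding genes of the mm10 RefSeq table whose symbols begin with Nduf, followed by a, ab, b, c, s or v and a number for subunits, or by af and a number for assembly factors. The rule found 48 of 21887 protein-coding genes: 40 subunit genes and 8 assembly factor genes. Ndufa4 is included by its name, although its protein is now counted with complex IV. So are 2 short genes named after Ndufb4: Ndufb4b spans 471 bp and Ndufb4c 485 bp.

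The series mapped wild-type and mutant H4 by HA ChIP-seq (sequencing of the DNA that comes down with the HA tag) in mESCs, in neural progenitor and neural cells made from them, and in mESC lines labelled HiraKO, DAXXKO and H33DKO. The 4 pulldowns used here came from the parental mESCs, stably carrying a PiggyBac transgene. The transgene held H4K91R with a 3HA tag (lysine 91 replaced by arginine), H4K91Q with a 3HA tag (lysine 91 replaced by glutamine), H4WT with a 3HA tag (wild type), or nothing (empty vector). The labels name no change to the cells' own H4 genes and do not say whether a line was 1 clone. Each group had 1 library, so groups were not tested against each other and replicates check none of the differences below. Exact 95% intervals, given in brackets after a share, cover the counting of genes or peaks only. The lists hold no expression values, so the identity of the cells was not checked.

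Complex I takes electrons from NADH and passes them through a flavin and a chain of iron-sulfur clusters to ubiquinone, and this drives proton pumping across the inner mitochondrial membrane. Its core subunits do the chemistry and are conserved from bacteria. The nuclear genome encodes those of the peripheral arm, and mitochondrial DNA, not covered by these genes, encodes those of the membrane arm. Accessory subunits surround the core and stabilise it. Assembly factors help to build the enzyme and are absent from the finished complex.

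The lists held 49155 peaks for H4K91R, 14314 for H4K91Q, 69158 for H4WT and 3007 for the empty vector, and the depth of the libraries is unknown. Peaks of a tagged histone that overlapped an empty-vector peak were left out, which left 47898, 14206 and 67078 peaks in the H4K91R, H4K91Q and H4WT lists. A gene was called marked where a remaining peak overlapped the 1 kb on either side of 1 of its ends. The peak values quoted are the authors' fold, a ratio of the pulldown to its background at the peak summit, and the authors' −log10 q. They describe a peak within its own list and are not compared between lists.

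The promoter table of RefSeq (GRCm38.p6, the same build as mm10) matched 42 of the 48 genes. The 250 bases before the annotated start are shown for 5 subunits, 1 for each combination of tagged lists seen at these genes. They are written 5′ to 3′ along the gene, and capitals mark CCGGAAG or its reverse complement, the letters bound by ETS factors such as GABPA, which are the motif matches that fall in the bases shown. Ndufb5 (chr3:32736813-32737062, plus strand) was marked by all 3 tagged histones. Ndufb6 (chr4:40279422-40279671, minus strand) was marked by H4K91R and H4WT. Ndufa4 (chr6:11907451-11907700, minus strand) was marked by H4K91R without H4WT. Ndufs3 (chr2:90904722-90904971, minus strand) was marked by H4WT alone, and Ndufs5 (chr4:123718187-123718436, minus strand) by no list.
Ndufb5: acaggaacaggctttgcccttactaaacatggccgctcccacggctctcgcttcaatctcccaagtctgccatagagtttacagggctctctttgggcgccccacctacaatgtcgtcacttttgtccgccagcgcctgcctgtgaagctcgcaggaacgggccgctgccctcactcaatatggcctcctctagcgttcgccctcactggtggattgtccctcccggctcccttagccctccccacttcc
Ndufb6: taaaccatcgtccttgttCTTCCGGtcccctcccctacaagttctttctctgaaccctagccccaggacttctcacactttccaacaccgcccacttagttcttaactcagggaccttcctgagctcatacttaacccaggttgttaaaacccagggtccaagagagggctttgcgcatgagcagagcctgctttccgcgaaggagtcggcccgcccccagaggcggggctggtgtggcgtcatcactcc
Ndufa4: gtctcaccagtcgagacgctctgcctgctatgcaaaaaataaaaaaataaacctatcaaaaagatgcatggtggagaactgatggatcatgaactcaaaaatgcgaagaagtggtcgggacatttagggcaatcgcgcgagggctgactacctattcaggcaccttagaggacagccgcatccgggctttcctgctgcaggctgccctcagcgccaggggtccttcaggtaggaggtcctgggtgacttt
Ndufs3: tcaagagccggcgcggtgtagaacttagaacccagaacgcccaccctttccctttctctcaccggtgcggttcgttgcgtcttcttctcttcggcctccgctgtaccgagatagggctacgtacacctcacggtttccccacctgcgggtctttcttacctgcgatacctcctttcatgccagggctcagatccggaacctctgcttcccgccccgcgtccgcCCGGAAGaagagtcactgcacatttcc
Ndufs5: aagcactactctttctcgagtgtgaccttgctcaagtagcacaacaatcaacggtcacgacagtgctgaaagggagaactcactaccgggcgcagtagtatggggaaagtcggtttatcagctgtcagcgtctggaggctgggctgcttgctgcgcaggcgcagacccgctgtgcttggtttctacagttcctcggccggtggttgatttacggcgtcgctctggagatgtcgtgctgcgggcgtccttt

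Most complex I subunit genes had an H4WT peak at an end and a minority had an H4K91R peak. H4K91R marked 13 of the 40 subunit genes, or 32.5% (18.6 to 49.1), against 37.9% of all protein-coding genes. H4K91Q marked 1, or 2.50% (0.0633 to 13.2), against 1.27% of all genes. H4WT marked 30, or 75% (58.8 to 87.3), against 58.4% of all genes. Empty-vector peaks lay at the ends of 2, or 5.00% (0.611 to 16.9), against 1.67% of all genes. Only the H4WT interval lies above the share of all genes, by a margin of less than 1 percentage point, and the H4K91R, H4K91Q and empty-vector intervals include it. More of the subunit genes than of all genes have another gene close by (25 of 40, against 5426 of 21887), and with genes divided by that, each H4WT interval includes the share of all genes, as given under neighbouring genes.

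H4WT alone marked 18 subunit genes, H4K91R with H4WT 11, all 3 tagged histones 1 (Ndufb5), H4K91R without H4WT 1 (Ndufa4), and none of the 3 marked 9. Of the 30 genes marked by H4WT, H4K91R also marked 12, or 40.0% (22.7 to 59.4), whereas it marked 61.3% of all 12775 H4WT-marked genes. Counted by place, 14 of the 46 H4WT peaks at subunit ends were overlapped by an H4K91R peak, or 30.4% (17.7 to 45.8), against 47.8% of H4WT peaks at the ends of all genes. In the other direction, 14 of 18 H4K91R peaks at subunit ends overlapped an H4WT peak, or 77.8% (52.4 to 93.6), against 86.2% of H4K91R peaks at the ends of all genes. The 4 that did not lay at Ndufa4, at the start of Ndufb2, and at the other ends of Ndufs7 and Ndufb7. Both intervals for H4K91R among H4WT-marked genes and places lie below the share of all genes. List length bears on this, as given next. The comparison is also not at like H4WT fold, as given under the groups of like fold.

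The counts moved with the length of the lists. With only peaks of −log10 q 5 or above, H4K91R marked 7 subunit genes (17.5%, against 25.1% of all genes) and H4WT 25 (62.5%, against 54.0%). When each tagged list was shortened to the 14314 peaks of highest −log10 q, H4K91R marked 3 (7.50%, against 13.9%) and H4WT 7 (17.5%, against 29.2%), so H4WT was above the share of all genes in the complete list and below it in the shortened list. H4K91R was at 24.0% of H4WT-marked subunits (6 of 25, against 43.9% of H4WT-marked genes) in the stricter lists and at 28.6% (2 of 7, against 34.2%) in the shortened lists.

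**Figure D1:**
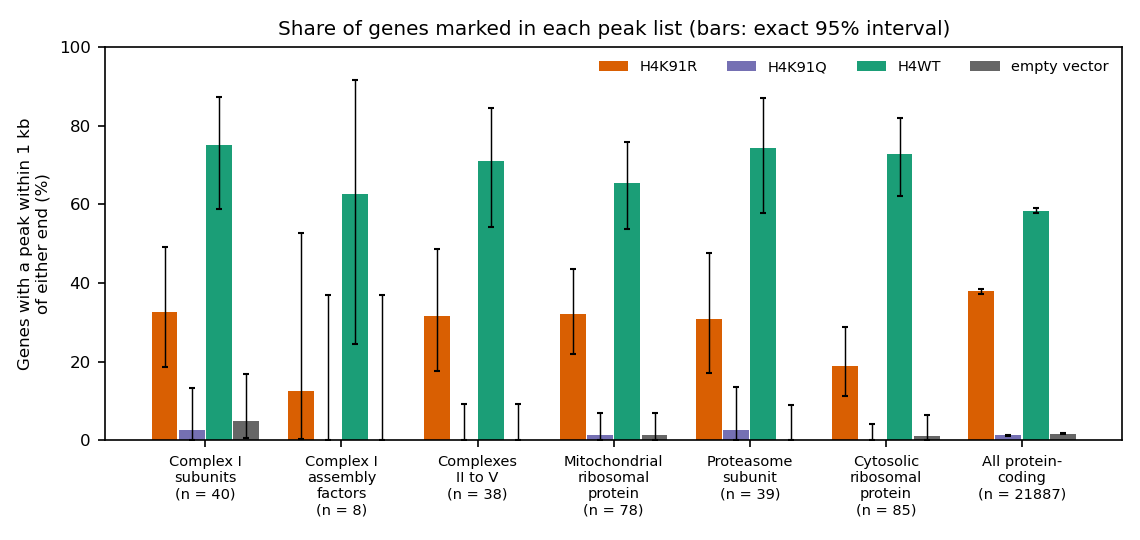
Share of genes with a peak within 1 kb of either end, for H4K91R, H4K91Q, H4WT and the empty vector, in 7 gene sets; error bars are exact 95% intervals. Among the 40 complex I subunits H4K91R reaches 32.5% and H4WT 75%, and among all 21887 genes 37.9% and 58.4%.

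The core subunits, which carry the flavin and the iron-sulfur clusters, each had an H4WT peak at an end, and with 7 genes the intervals are wide. H4K91R marked 2 of the 7 (3.67 to 71.0%, against 37.9% of all genes), H4K91Q and the empty vector 0, and H4WT 7 (59.0 to 100%, against 58.4%). Ndufs7, which holds the last iron-sulfur cluster of the chain, had an H4K91R peak of fold 4.11 at its other end, 7246 bp from the start, and H4WT peaks of fold 4.37 at its start and 5.56 beyond its other end. The peak of fold 5.56 also reached the window of the neighbour Gamt. H4K91R and H4WT thus marked Ndufs7 at different places.

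Another 5 core genes had H4WT peaks and no H4K91R peak. Ndufs1, the large subunit with several iron-sulfur clusters, had an H4WT fold of 7.31 (chr1:63177105-63177511). That peak lay outside the gene, beyond 1 of its ends, and also reached the window of the neighbour Eef1b2. Ndufs3, a scaffold of the ubiquinone module, had an H4WT fold of 7.19 (chr2:90904383-90904629), in a peak that also reached the window of its divergent neighbour Kbtbd4. Ndufv1, which binds the flavin and NADH, had an H4WT fold of 6.03, and its partner Ndufv2 one of 4.85. Ndufs8, an iron-sulfur subunit, had an H4WT fold of 4.74 at its other end, 3541 bp from the start, and none within 1 kb of its start. The nearest H4WT peak was 1148 bp from that start, just outside the window. Over all marked subunit genes the H4WT folds ran from 3.76 to 11.3 with a median of 6.33, so 2 of these 5 core genes lay above that median and none near the top of the range.

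Among the 33 accessory subunits, H4K91R marked 11, H4K91Q 1 and H4WT 23. By letter, H4K91R marked 8 of 13 Ndufb genes, proteins of the membrane arm, or 61.5% (31.6 to 86.1), and 2 of 14 Ndufa and Ndufab genes, or 14.3% (1.78 to 42.8). H4WT marked 11 of the 13 (84.6%, 54.6 to 98.1) and 7 of the 14 (50%, 23.0 to 77.0). The grouping by letter was looked at after the values were known, and the intervals of both groups overlap for each histone and include the shares of all genes, 37.9% for H4K91R and 58.4% for H4WT. Both Ndufc genes and all 3 Ndufv genes had H4WT peaks without H4K91R at their ends. Of the 8 Ndufs genes, H4K91R marked 3 and H4WT 7.

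Ndufb5, a membrane-arm subunit, was the 1 member with H4K91Q peaks. Its highest fold was 11.5 in the H4K91R list (chr3:32736955-32737670), 4.01 in the H4K91Q list (chr3:32737081-32737281) and 11.0 in the H4WT list (chr3:32737015-32737567), and the empty-vector list had no peak there. A second H4K91Q peak of fold 3.63 lay beside the first, and both sat inside the 716 bp H4K91R peak. H4K91R and H4WT had a further pair of overlapping peaks upstream, of fold 6.69 and 6.77. Within the H4K91R list its fold was above that of 98.6% of marked genes, whereas within the H4K91Q list it was above 10.8%. Ndufb5 shares its start region with Mrpl47, a mitochondrial ribosomal protein gene on the opposite strand, and all of these peaks reached the window of Mrpl47 too.

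Ndufb6 and Ndufb3, also of the membrane arm, came next among genes with both histones. Ndufb6 had a fold of 6.14 in the H4K91R list (chr4:40279057-40279335) and 10.5 in the H4WT list (chr4:40278931-40279347). Ndufb3 had a fold of 5.95 in the H4K91R list (chr1:58585908-58586136) and 9.38 in the H4WT list (chr1:58585852-58586267). Its peaks lay before its start, toward the divergent gene Fam126b. Ndufa13, also known as GRIM-19, had the highest H4WT fold of all members, 11.3 in a peak of 1158 bp (chr8:69902088-69903245), and an H4K91R fold of 4.16 in a peak inside it, near the lowest H4K91R fold of the subunit genes (4.11). That peak also reached Tssk6, so it is not a value of Ndufa13 alone.

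The other accessory genes with both histones had moderate folds. Ndufb1 had folds of 5.57 (H4K91R) and 5.38 (H4WT), Ndufb10 had 5.45 (H4K91R) and 7.39 (H4WT), and Ndufb7 had 5.01 (H4K91R) and 3.76 (H4WT). Ndufs4, whose loss in mice models Leigh syndrome, had folds of 5.00 (H4K91R) and 7.23 (H4WT). Ndufb2 had 4.92 (H4K91R) and 3.99 (H4WT), and Ndufb8 had 4.38 (H4K91R) and 5.88 (H4WT). Over all 13 subunit genes marked by H4K91R the highest fold per gene had a median of 5.45, against 5.59 over all genes it marked. Over the 30 marked by H4WT the median was 6.33, against 7.39. The subunit genes thus sat near the middle of the marked genes for H4K91R and in the lower part for H4WT, where 32.4% of marked genes had a fold below the subunit median.

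**Figure D2:**
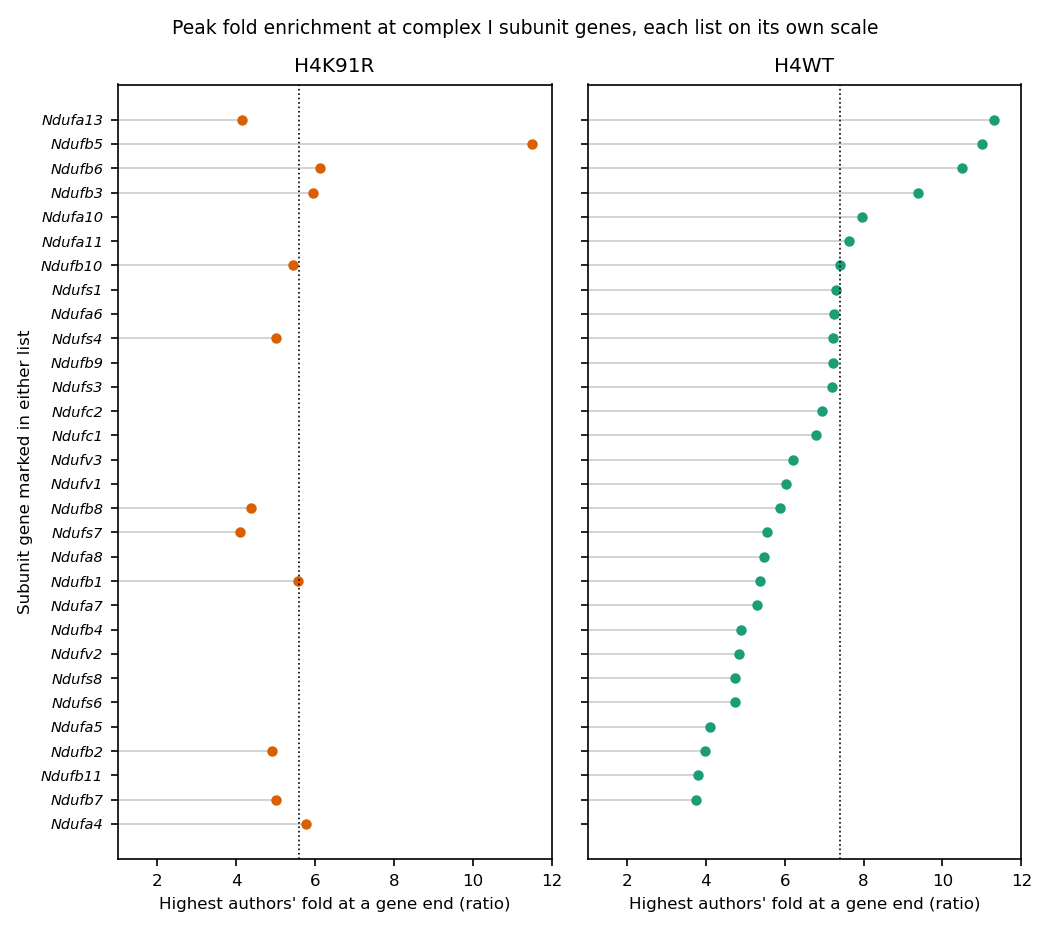
Highest authors' fold at a gene end (horizontal axis, ratio) for the subunit genes marked by H4K91R (left) or H4WT (right) except 1 that is not shown, ordered by H4WT fold; dotted lines are the medians of all marked genes, 5.59 and 7.39. Ndufb5 stands alone at 11.5 in the H4K91R list, and Ndufa4 has a value in that list only.

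Ndufa4 was the 1 member marked by H4K91R and not by H4WT. Its H4K91R peak (chr6:11907227-11907441) had a fold of 5.78 and a −log10 q of 6.07, lay just after the start, and reached the window of the divergent gene Phf14. The nearest H4WT peak was 18539 bp from the start of Ndufa4. Among all protein-coding genes, 426 (1.95%) were marked by H4K91R alone.

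Several well-known accessory subunits had H4WT without H4K91R at their ends. Of these, Ndufa10, Ndufa11, Ndufs6 and Ndufv3 each had 1 H4K91R peak inside the gene, outside the windows at its ends. Ndufa10, a membrane-arm subunit related to nucleoside kinases, had an H4WT fold of 7.95 just after its start. Ndufa11, of the membrane arm, had 4 H4WT peaks, the highest of fold 7.62 beyond its other end. The rest were Ndufa5, Ndufa6, Ndufa7, Ndufa8, Ndufb4, Ndufb9, Ndufb11, Ndufc1, Ndufc2, Ndufs6 and Ndufv3, with H4WT folds from 3.81 (Ndufb11, on the X chromosome) to 7.25 (Ndufa6). Their folds overlapped those of the genes that had both histones.

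The 9 subunit genes that no tagged list marked were Ndufa1, Ndufa2, Ndufa3, Ndufa9, Ndufa12, Ndufab1, Ndufb4b, Ndufb4c and Ndufs5. Ndufab1 encodes the mitochondrial acyl carrier protein, and Ndufa9 a subunit at the junction of the arms. From the start of Ndufab1 the nearest peak was 34016 bp away for H4K91R and 30820 bp for H4WT. From that of Ndufa1, on the X chromosome, it was 26452 bp for H4K91R and 27945 bp for H4WT. Ndufa12 and Ndufa9 had an H4WT peak closer by, 2381 bp and 3049 bp from their starts, outside the window. Ndufs5 had its nearest H4K91Q peak at 4594 bp, nearer than H4K91R at 15528 bp or H4WT at 15326 bp.

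Empty-vector peaks touched 2 members. At Ndufa3, a small membrane-arm subunit, an empty-vector peak of fold 6.44 lay beyond the other end, 3427 bp from the start, and the 1 H4WT peak there was left out for overlapping it. At Ndufb7 an empty-vector peak of fold 4.75 lay 4208 bp from the start, near the other end shared with Tecr, and 1 of 4 H4WT peaks was left out. Neither peak was at a start, and Ndufb7 remained marked by H4K91R and H4WT. The nearest H4K91Q peak was at a median of 114 kb from the starts of the 35 subunit genes with a known strand, against 129 kb over all such genes.

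Most assembly factors had H4WT and 1 had H4K91R, and with 8 genes the intervals are wide. H4K91R marked 1 of 8, or 12.5% (0.316 to 52.7), H4K91Q and the empty vector 0, and H4WT 5, or 62.5% (24.5 to 91.5). The exact interval for 0 of 8 reaches up to 36.9%. Each of these intervals includes the share of all genes. Ndufaf3, which works with Ndufaf4 on the ubiquinone module, was the 1 with H4K91R, at a fold of 3.33 and a −log10 q of 2.44. Its H4WT peaks had folds of 7.55 and 6.65, and these and the H4K91R peak all reached the neighbour Dalrd3.

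The other assembly factors had H4WT peaks or none. Ndufaf8, the partner of Ndufaf5, had the highest H4WT fold of the group, 9.06 in a peak just after its start, and shares its start region with Tepsin. Ndufaf6 had an H4WT fold of 6.89, Ndufaf2, a chaperone of late assembly related to Ndufa12, 6.63, and Ndufaf4 5.83. Ndufaf1, a factor of membrane-arm assembly, Ndufaf5, which hydroxylates an arginine of Ndufs7, and Ndufaf7, a methyltransferase of early assembly, had no peak at their ends in any list. From the start of Ndufaf5 the nearest peak was 148218 bp away for H4K91R and 103858 bp for H4WT. Of the partners Ndufaf5 and Ndufaf8, only Ndufaf8 thus had H4WT peaks at its ends. Of Ndufaf3 and Ndufaf4, only Ndufaf3 had an H4K91R peak. Its fold was above that of only 0.145% of H4K91R-marked genes, and no assembly factor kept H4K91R at −log10 q 5 or above.

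The peaks lay mainly at gene starts. With the strand from the promoter table, 35 subunit genes could be oriented. H4K91R was at the start of 11 (31.4%, 16.9 to 49.3, against 32.1% of the 17492 oriented genes) and at the other end of 2. H4WT was at the start of 25 (71.4%, 53.7 to 85.4, against 53.8%) and at the other end of 6, which were Ndufa7, Ndufa11, Ndufa13, Ndufb7, Ndufs7 and Ndufs8. Ndufa7 and Ndufs8 had H4WT at the other end without the start. H4WT was at 17.1% of subunit other ends and 17.3% of all other ends. The H4WT interval at starts just includes the share of all genes.

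Within 1 kb of the start, the summits gathered just downstream of it. The 14 H4K91R summits at subunit genes had a median position of 144 bp after the start, against 226 bp over 7273 summits of all genes. The 30 H4WT summits had a median of 169 bp, against 190 bp over 12961 summits. Between 100 and 350 bp after the start lay 8 of the 14 H4K91R summits (57.1%, against 34.3% of all genes' summits) and 19 of the 30 H4WT summits (63.3%, against 37.2%). From 250 bp before the start to 99 bp after it lay 1 of the 14 H4K91R summits (7.14%, against 19% of all genes' summits) and 3 of the 30 H4WT summits (10%, against 20.7%). These limits were set after the positions were seen.

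**Figure D3:**
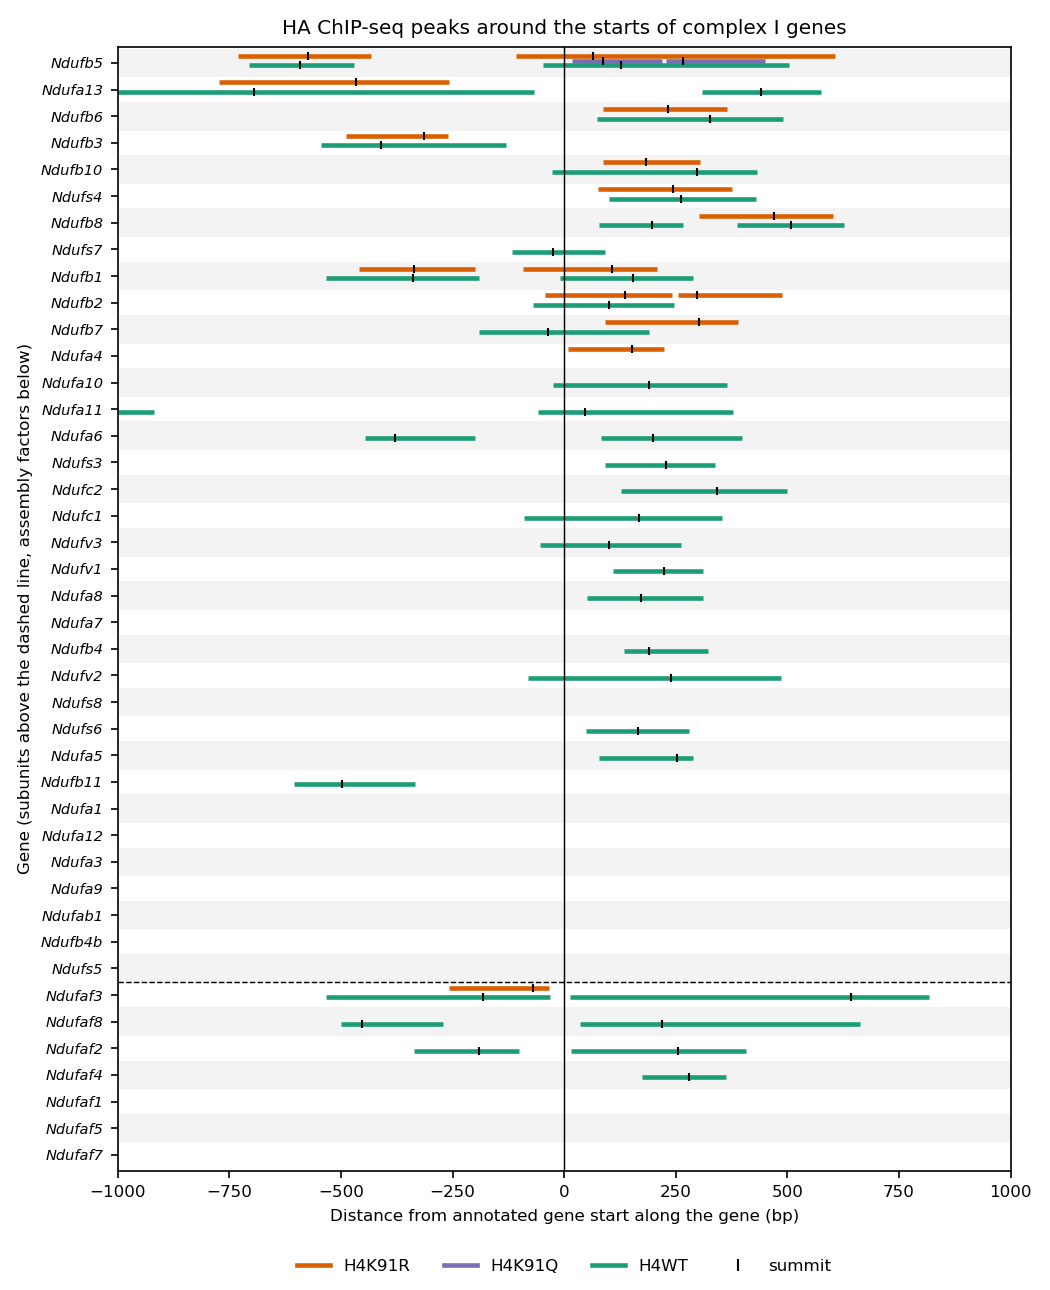
Peaks of H4K91R, H4K91Q and H4WT (coloured bars, with summits as ticks) within 1 kb of the annotated start (horizontal axis, bp along the gene) for the 42 complex I genes with a known strand; no empty-vector peak falls in this range. Of the 30 H4WT summits at subunits in this range 22 lie after the start, and Ndufb5 is the 1 gene with all 3 colours.

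A few starts had peaks on both sides. Ndufb1, which faces the divergent gene Cpsf2, had H4K91R summits at −336 and 107 bp from the start (minus is before it) and H4WT summits at −339 and 155 bp. Ndufb5 had H4K91R summits at −574 and 65 bp, and H4WT summits at −592 and 128 bp. Ndufa6, an accessory subunit that binds the acyl carrier protein, had H4WT summits at −379 and 200 bp. In all, 2 of 11 subunit genes with an H4K91R summit in range had them on both sides, against 12.9% of all such genes, and 4 of 25 with an H4WT summit, against 19.6%. Of the assembly factors, Ndufaf2, Ndufaf3 and Ndufaf8 had H4WT summits on both sides.

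Where H4K91R and H4WT peaks overlapped at a subunit start, their summits were usually close. In 12 overlapping pairs the distance between the summits had a median of 55 bp, against 117 bp in 6990 pairs at all starts, and 10 of the 12 were within 150 bp, against 58.5%. That limit too was set after the values were seen. The widest gaps were 338 bp at Ndufb7 and 228 bp at Ndufa13. In 3 pairs (Ndufb1, Ndufb5 and Ndufs4) the summits were within 18 bp of each other. Widths at subunit genes had a median of 278 bp for H4K91R and 279 bp for H4WT, against 293 bp and 361 bp at all genes.

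**Figure D4:**
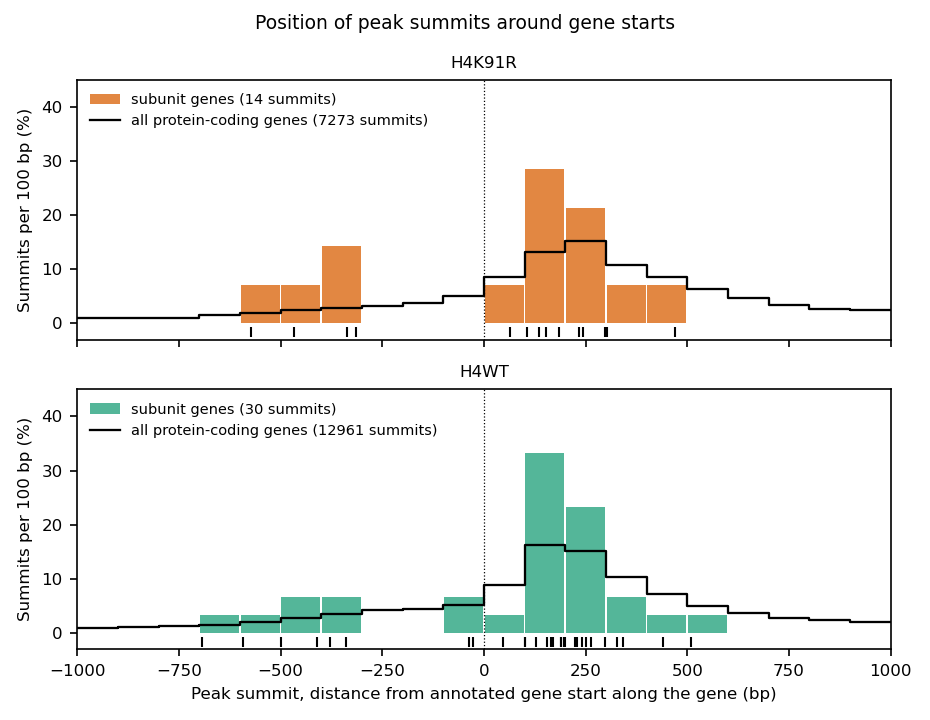
Position of peak summits relative to the annotated start (horizontal axis, bp) as a share per 100 bp, for H4K91R (top) and H4WT (bottom); bars and ticks are subunit genes, the black line all protein-coding genes. Summits of subunit genes sit mostly between 100 and 350 bp after the start, 8 of 14 for H4K91R and 19 of 30 for H4WT.

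Over all genes H4K91R was more frequent at higher H4WT folds, so its share among the subunits was also read within groups of like fold. All H4WT-marked genes were ordered by highest H4WT fold and divided into 5 equal groups. H4K91R was at 4 of 12 subunit genes in the lowest group (folds 2.71 to 5.64), where 36.0% of all genes had it. It was at 2 of 5 in the next group, where 51.1% had it. In the middle group (6.85 to 7.99) it was at 2 of 9, Ndufb10 and Ndufs4, where 62.5% had it. The 7 without it there were Ndufa10, Ndufa11, Ndufa6, Ndufb9, Ndufc2, Ndufs1 and Ndufs3. In the upper groups it was at 1 of 1 (Ndufb3) and 3 of 3 (Ndufa13, Ndufb5 and Ndufb6), where 74.7% and 82.1% had it. All subunits in the upper groups therefore had H4K91R, but they were few, and the widest gap to all genes was in the middle group, on 9 subunits. Of the 30 H4WT-marked subunits 12 lay in the lowest group, against 2555 of all 12775 H4WT-marked genes. The 40.0% against 61.3% given earlier is thus not a comparison at like fold. The shares within groups have no intervals and were not tested.

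**Figure D5:**
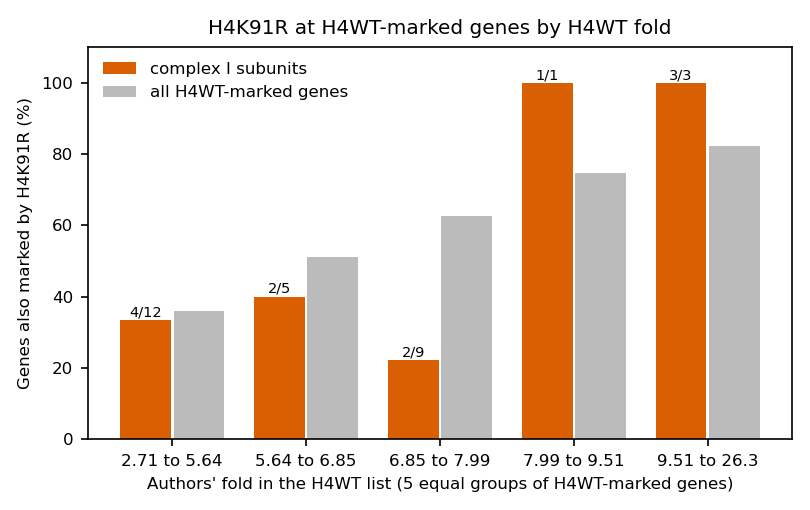
Share of H4WT-marked genes also marked by H4K91R (vertical axis, %) in 5 equal groups of rising H4WT fold (horizontal axis), for complex I subunits (left bars, with counts) and all H4WT-marked genes (right bars). The share of all genes is 36.0% in the lowest group and 82.1% in the highest, and the subunits number 12, 5, 9, 1 and 3.

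Neighbouring genes were close to many members. Another protein-coding gene had an end within 1 kb of an end of 25 of the 40 subunit genes, and 12 of the 35 oriented ones had a divergent start within 1 kb. Of all protein-coding genes, 5426 had such a neighbour and 16461 did not, a division made after the values were seen. H4K91R marked 9 of the 25 subunit genes with a close neighbour, or 36.0% (18 to 57.5), against 50.1% of all genes with one. It marked 4 of the 15 without, or 26.7% (7.79 to 55.1), against 33.8%. H4WT marked 21 of the 25, or 84.0% (63.9 to 95.5), against 79.7%, and 9 of the 15, or 60.0% (32.3 to 83.7), against 51.3%. All 4 intervals include the share of all genes of the same kind. A peak at a shared end counts for both genes, and which of them it belongs to cannot be told apart. The subunit genes were also short, with a median length of 7666 bp against 17169 bp over all protein-coding genes.

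The promoters of the subunit genes varied widely in CpG, and the median was high with and without a peak at the start. Over the 300 bp window from 250 bases before to 50 after the start, the 35 promoters held 5 to 39 CpGs with a median of 19, against a median of 13 over all genes. The 11 with H4K91R at the start had a median of 17 CpGs (12 to 29) and 60.0% GC. The 15 with H4WT and no H4K91R at the start had 20 CpGs (8 to 39) and 58.3% GC, and the 9 with no tagged histone there 24 CpGs (5 to 29) and 57.3% GC. Over all genes the promoters with H4K91R at the start had a median of 22 CpGs and 63.3% GC, those with H4WT and no H4K91R 60.7% GC, and those with no tagged histone 3 CpGs and 48.0% GC. Ndufs5, shown above, has 25 CpGs in its window and no peak, and Ndufa4, marked by H4K91R alone, has 14.

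Letters of factors known to act on respiratory chain genes were searched in the same window on both strands. CCGGAAG (ETS factors) was in 4 of 35 subunit promoters (11.4%) and 11.9% of all promoters. GCATGC (the core of the NRF1 motif) was in 3 (8.57%), Ndufa6, Ndufa8 and Ndufa11, and in 8.23% of all. It was in 3 of the 15 subunit promoters with H4WT and no H4K91R at the start, and in 0 of the 11 with H4K91R there. Over all genes the same shares were 10.8% and 8.42%, and no difference was tested. TGACGT (a shortened CRE) was in 4 (11.4%) and 8.71% of all. AAGATGG (YY1) was in 7 (20%) and 6.35% of all. None of these 7 subunit matches lay wholly within the 250 bases before the start, so each lay after the start or across it. Whether these letters act as YY1 sites was not tested. A CCGGAAG can run into an AAGATGG by sharing its last letters, and TGACGT overlaps its reverse complement in a full CRE. Ndufb6 and Ndufs3, shown above, hold the ETS letters, Ndufs3 in 2 places of its window, and Ndufb5, Ndufa4 and Ndufs5 hold none of the 4 motifs.

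The genes of the other respiratory complexes were counted in the same way. Of 38 genes of complexes II to V, H4K91R marked 12 (31.6%, 17.5 to 48.7, against 37.9% of all genes), H4K91Q 0, H4WT 27 (71.1%, 54.1 to 84.6, against 58.4%) and the empty vector 0, and both intervals include the share of all genes. All 4 genes of complex II, succinate dehydrogenase, had H4WT and none had H4K91R, with H4WT folds from 3.99 (Sdhd) to 8.0 (Sdhb). Of 9 complex III genes H4K91R marked 4 and H4WT 6, of 10 complex IV genes H4K91R marked 3 and H4WT 6, and of 15 complex V genes H4K91R marked 5 and H4WT 11. Atp5c1, a subunit of the ATP synthase, was marked by H4K91R (fold 5.15) and not by H4WT, as Ndufa4 was. Of 7 further complex I assembly genes outside the Ndufaf names, H4K91R marked 3 and H4WT 5, and Tmem126b had H4K91R (fold 4.10) without H4WT.

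Other large gene sets for protein complexes were set beside the subunits. H4K91R marked 25 of 78 mitochondrial ribosomal protein genes (32.1%, 21.9 to 43.6), 12 of 39 proteasome genes (30.8%, 17.0 to 47.6) and 16 of 85 cytosolic ribosomal protein genes (18.8%, 11.2 to 28.8). H4WT marked 51 (65.4%, 53.8 to 75.8), 29 (74.4%, 57.9 to 87.0) and 62 (72.9%, 62.2 to 82.0). The shares of all protein-coding genes were 37.9% for H4K91R and 58.4% for H4WT. Of the H4WT-marked genes in each set, H4K91R marked 24 of 51 (47.1%), 12 of 29 (41.4%) and 16 of 62 (25.8%), against 12 of 30 (40.0%) of complex I subunits. For complexes II to V it marked 11 of 27 (40.7%), and for all H4WT-marked genes 61.3%. A share below that of all genes was thus not particular to the complex I subunits. The intervals of the complex I subunits overlap those of each of these sets for both histones, and no test of a difference was made.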

How the data were processed

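Anti-HA pulldowns of 4 mESC lines were used, 1 library each (H4K91R, H4K91Q, H4WT, empty vector), with groups from the sample titles. The other 32 of 36 samples were not analysed here. Peaks were called with MACS2 on mm10, per the submitters' processing notes, and each pulldown was called against the input of its own line, per the peak names in the deposited files. The aligner, the MACS2 version and the threshold of the calls were not given in the sources used here. The authors' fold (a ratio) and −log10 q of each deposited peak were used with its deposited summit position. The deposited −log10 p only ordered ties, and the deposited score was not used. Sequencing depth is unknown, since peak lists carry no read counts, and a deeper library can pass weaker peaks.

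Gene ends came from the RefSeq table of GRCm38.p6, and starts, strand and sequences from its promoter table (17492 of 21887 protein-coding genes). Overlaps needed 1 bp. Peaks and windows were joined in Python 3.11.15 with pandas 2.3.3 and numpy 2.4.6, and shares have exact (Clopper-Pearson) 95% intervals from scipy 1.17.1. The steps were tested on simulated peaks. Values are given for the core subunits, the 8 highest folds in the H4K91R and H4WT lists, members marked by H4K91Q, by the empty vector, by H4K91R without H4WT or by no list, and all assembly factors. Others are given by range or chosen after their values were seen. The members and lists were chosen with earlier results of these data known. Of 8 further assembly genes asked for, 7 matched the table. Values of 1 member, counted in the totals, are not reported here.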

Additional observations from a re-analysis of the deposited data

How the results depend on the processing

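The counts of marked subunits were recomputed among peaks of −log10 q 5 or above, in tagged lists of equal length, with empty-vector peaks kept, in windows of 500 bp, 2 kb and the whole gene, with 50% of the peak inside the window, at starts only, without Ndufa4 and without members that share a window. The assembly factor counts and the share of H4WT-marked subunits with H4K91R were not recomputed under the last 2 of these, and the overlap of H4WT peaks was recomputed only for the stricter, equal and unfiltered lists and for 50% of each peak. Of 84 recomputed values, 70 stayed within 1.5 times the main count or within the interval of the main share, and 14 moved. Some of the 70 could not move, so their number does not measure stability. Equal length left H4K91Q, the shortest tagged list, and the empty vector as they were. Keeping empty-vector peaks leaves the empty-vector counts unchanged, and Ndufa4 was marked by H4K91R only. Assembly factor counts for H4K91Q and the empty vector were 0 in every setting. H4K91R-marked subunits numbered 7 among peaks of −log10 q 5 or above, 3 in lists of equal length and 4 of 15 without shared windows, against 13. H4WT-marked subunits numbered 7 in lists of equal length and 9 of 15 without shared windows, against 30. H4K91Q-marked subunits numbered 0 among those stricter peaks and without shared windows, against 1. Empty-vector subunits numbered 1 among the stricter peaks and 0 in 500 bp windows, at starts only and without shared windows, against 2. Of assembly factors, H4K91R marked 0 among the stricter peaks and in lists of equal length, against 1, and H4WT 1 in lists of equal length, against 5. Leaving out genes or peaks lowers such counts by construction. The share of H4WT-marked subunits also marked by H4K91R ran from 24.0% to 51.6% over the alternatives, below that of all genes under the same alternative each time. The alternatives reuse the same libraries, so they are not independent checks. In 500 bp windows the count was again 12 of 30 (22.7 to 59.4), which includes the 55.3% of all genes. With 50% of the peak inside the window it was also 12 of 30, and that interval stayed just below the 60.0% of all genes. Smaller or changed counts have other intervals, which were not computed, so the 500 bp windows may not be the only such case. At starts only the count was 10 of 25, against 56.9%, and in 2 kb windows 15 of 30, against 66.2%. Whether the alternatives differ from all genes was not tested. No paired analysis was possible because each group has 1 library. No depth is given, so a gene without a peak is not shown to lack tagged H4.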

Other observations

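Regulators of mitochondrial biogenesis, a list separate from complex I, had tagged H4 at most of their genes. H4K91R marked 6 of 12 (50%, 21.1 to 78.9), H4K91Q 1, H4WT 10 (83.3%, 51.6 to 97.9) and the empty vector 0, against 37.9%, 1.27%, 58.4% and 1.67% of all protein-coding genes. Nrf1, a transcription factor of respiratory chain genes, had a fold of 6.02 in the H4K91R list and 11.5 in the H4WT list. Esrra, an orphan nuclear receptor, had 5.09 in the H4K91R list and 11.5 in the H4WT list. Tfam, which packages mitochondrial DNA and acts in starting its transcription, had 6.14 in the H4K91R list and 6.35 in the H4WT list. The coactivator genes Ppargc1a and Ppargc1b had H4K91R folds of 6.66 and 7.10 and H4WT folds of 6.98 and 10.1. The genes of the factors and cofactors Gabpa, Pprc1, Tfb2m and Yy1 had H4WT without H4K91R, with folds from 6.11 to 8.65, and Gabpb1 and Tfb1m had no peak. Polrmt, the mitochondrial RNA polymerase, was the 1 with H4K91Q, and had folds of 57.8 in the H4K91R list, 23.5 in the H4K91Q list and 9.78 in the H4WT list. The 57.8 equals the highest fold of the complete H4K91R list, against a median of 5.59 over all genes that list marked. Whether peaks at these regulator genes are shared with neighbours was not examined.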
